A study of Canis lupus familiaris with 8 samples.

Results

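Collagen genes were taken as every row of the deposited expression table whose symbol has the form of a collagen chain name, COL with a type number, A and a chain number. They came to 41 genes of the 30424 listed. By class, 11 encode fibrillar chains, 6 encode basement membrane chains of type IV, 4 encode beaded filament chains of type VI and 10 encode FACITs, the collagens that sit on fibril surfaces. The other 10 are 3 short chain network genes, 4 transmembrane collagens and 1 each of the anchoring fibril, multiplexin and remaining kinds. COL6A2, COL6A4, COL18A1 and COL26A1 have no row under their own symbol and were not analysed here.

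RNA sequencing covered 8 libraries of dog cells and is given as TPM, a share of each library's transcripts corrected for gene length. The EC library is labelled as untreated normal endothelial cells with the source name CnAOEC. The other 7 libraries are of JuB2, a line grown from a dog hemangiosarcoma, a cancer of blood-vessel-like cells. In 3 of them, titled shA, the label gives knockdown of KDM2B, a histone demethylase gene, by an shRNA, a short hairpin RNA. They are called the libraries labelled knockdown here and carry the words labelled KDM2B shRNA in the plots. In 3 the cells expressed a scramble shRNA, a control hairpin titled scr1, and 1 was untreated JuB2. All JuB2 groups are thus of a single tumour line, each hairpin group carries a single hairpin name, and EC and untreated JuB2 have 1 library each, so differences that involve them have no replicate check. The labels do not say whether replicates are separate cultures, and every p-value therefore measures the spread between these libraries alone, which may be technical.

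Collagen chains wind into triple helices that are secreted into the extracellular matrix. Fibrillar collagens of types I, III and V build the tension-bearing fibrils of connective tissue and vessel walls, and type IV forms the sheet-like network of the basement membrane on which endothelial cells rest. Type VI makes beaded microfilaments that tie cells to the surrounding matrix, and FACITs decorate fibrils and link them to other matrix proteins. Many helices need chains from different genes in fixed proportion: type I combines a pair of COL1A1 chains with a single COL1A2 chain, and type IV in most basement membranes a pair of COL4A1 chains with a single COL4A2 chain.

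KDM2B, the gene named as the target, stood at 20.9, 19.7 and 18.2 TPM in the libraries labelled knockdown, against 14.0, 15.01 and 12.9 TPM in scramble. It was higher, not lower, by 0.46 ± 0.11 in log2(TPM + 1) (SE, limma adjusted p = 0.0101), and each direction given here is for libraries with that label, not for a measured loss of KDM2B transcript. Untreated JuB2 held 17.65 TPM of KDM2B, above every scramble library and below every library labelled knockdown. With trimmed-mean scaling of the libraries the KDM2B difference was 0.29 (limma adjusted p = 0.0486). TPM keeps no sequencing depth, so the reads behind each value are unknown. Between 12639 and 13452 genes were above 0 in each library. The number was 13420 ± 32.5 in the libraries labelled knockdown and 12719 ± 47.6 in scramble (SD, n = 3 each), without overlap. Mitochondrially encoded genes took 12.0 ± 0.646% of TPM in the libraries labelled knockdown and 18.1 ± 0.786% in scramble (SD, n = 3 each).

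The endothelial label of EC was not borne out by its defining markers. PECAM1, VWF, TIE1, CD34, ESAM and MMRN1 were listed at 0 in EC and CDH5 at 0.64 TPM, and of the 17 endothelial markers with a row 7 reached 1 TPM, the highest being ENG at 37.0 and ERG at 21.9 TPM. In untreated JuB2 PECAM1, VWF, TIE1, CD34 and CDH5 were also listed at 0. A value of exactly 0 can be a failed estimate. Fibroblast and mural markers summed to 6558 TPM over 11 genes in EC, against 125 TPM in untreated JuB2. Smooth muscle actin ACTA2 made up most of this, at 5319 TPM in EC and 11.1 TPM in untreated JuB2. Of these 11 genes 9 reached 1 TPM in EC, with CNN1 at 755 and TCF21 at 1.0 TPM, and RGS5 and DES were listed at 0. Among leukocyte markers only CD79A reached 1 TPM in any library, with 3056 TPM in EC and 1857 TPM in untreated JuB2, while PTPRC and SPI1 were below 1 TPM in every library. Of the 4 epithelial markers with a row, KRT18 reached 123 TPM in EC and was listed at 0 in untreated JuB2. No marker on the cartilage and bone list with a row passed 5 TPM in any library.

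Collagen genes took a far larger share of the EC library than of any JuB2 library. They held 2.13% of TPM in EC, against 0.153% in untreated JuB2. In the libraries labelled knockdown the share was 0.102 ± 0.00369%, against 0.187 ± 0.00388% in scramble (SD, n = 3 each), and the groups did not overlap. COL3A1 was the 11th and COL1A1 the 14th most abundant of all 30424 listed genes in EC. In untreated JuB2 COL1A2 led the collagens and stood at rank 236. Among the 41 genes 19 reached 1 TPM in EC and 15 in untreated JuB2. In every library the 5 highest collagen genes held between 84.4% and 89.2% of the collagen TPM.

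Fibrillar chains dominated all libraries, and the beaded filament sum, which in EC was nearly all COL6A1, separated EC from JuB2 most widely. The fibrillar sum was 17775 TPM in EC and 1337 TPM in untreated JuB2. It was 933, 907 and 862 TPM in the libraries labelled knockdown, against 1652, 1586 and 1599 TPM in scramble. Untreated JuB2 thus lay between the hairpin groups. The basement membrane sum was 844 TPM in EC and 63.7 TPM in untreated JuB2. In the libraries labelled knockdown it was 50.9, 42.3 and 48.3 TPM, against 102, 99.0 and 100.3 TPM in scramble. These groups also stood apart, with untreated JuB2 again between them.

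Beaded filament chains summed to 1387 TPM in EC and 0.38 TPM in untreated JuB2, and the other 6 JuB2 libraries held at most 0.51 TPM. FACIT genes summed to 918 TPM in EC and 118 TPM in untreated JuB2. Their sum was 61.6, 55.6 and 61.1 TPM in the libraries labelled knockdown, against 153, 148 and 146 TPM in scramble. By ratio of means the FACIT sum was the smallest share of scramble, at 0.398, followed by basement membrane at 0.47 and fibrillar at 0.559. Set against the single untreated library the same ratios were 0.506, 0.741 and 0.674. Class sums follow their most abundant members and were given no test. By the median log2 difference of the members tested between the hairpin groups the order was reversed. That median was -1.02 over 6 fibrillar, -0.86 over 3 basement membrane and -0.17 over 5 FACIT genes. Of these FACIT genes COL14A1, at 0.95, reached the level needed for the test only through the libraries labelled knockdown. Its direction was thus fixed, and it raises the FACIT median. The rest were COL16A1 at -1.54, COL12A1 at -1.13, COL9A3 at -0.17 and COL21A1 at -0.02.

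**Figure D1:**
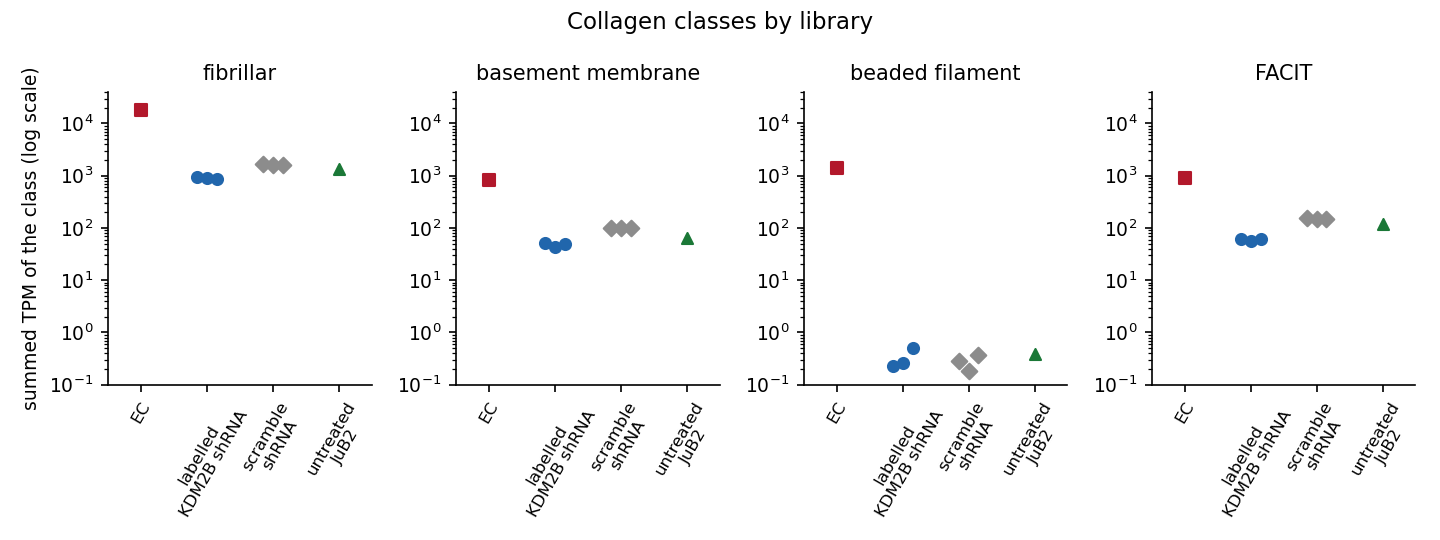
Summed TPM of the fibrillar, basement membrane, beaded filament and FACIT collagen genes, 1 point per library on a log axis, for EC (red), the libraries labelled knockdown (blue), scramble (grey) and untreated JuB2 (green). EC lies above every JuB2 library in all 4 classes, the beaded filament class is at 0.51 TPM or less in all JuB2 libraries, and in the other 3 classes the libraries labelled knockdown lie below scramble.

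Set against untreated JuB2, most collagen genes that were present were higher in EC. Of the 22 members that reached 1 TPM in at least 1 of these 2 libraries, 14 were at least 2 higher on the log2(TPM + 1) scale and 1 was at least 2 lower. Of all genes so compared, 7.18% were that much higher and 7.59% that much lower. The median of the members was 3.26 higher and the median of all genes compared was -0.33 on the same scale. Against untreated JuB2 and each scramble library at once, 14 of 23 members were higher and 1 was lower, where 5.68% and 4.84% of all genes were. The member that was lower in EC is COL4A5. As both groups are single libraries in bulk RNA, fewer cells of a type and less RNA per cell cannot be told apart, and the part of the fibroblast and mural markers that move with this difference was not tested.

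**Figure D2:**
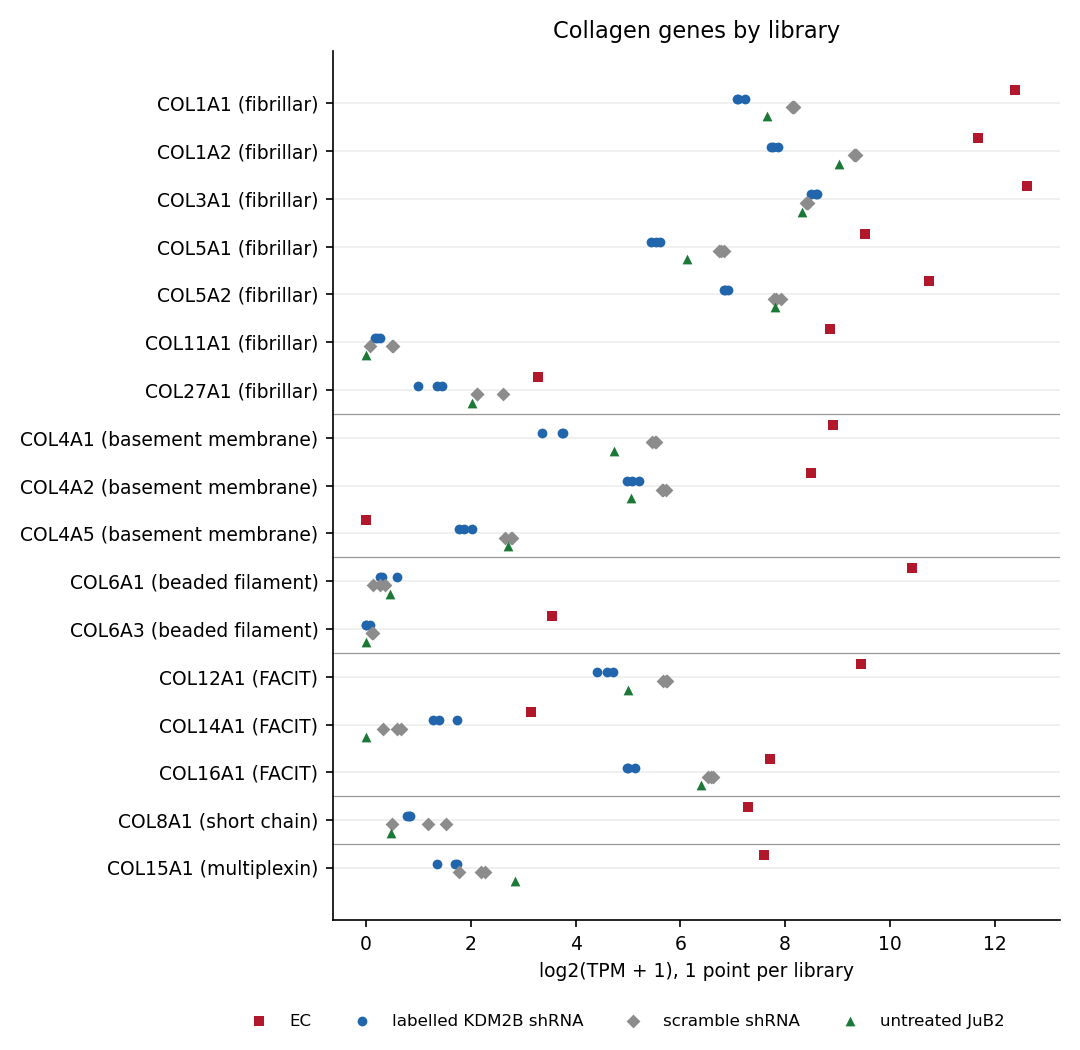
Level of the 17 collagen genes that reached a group mean of 5 TPM or passed the test, as log2(TPM + 1) with 1 point per library, by class. EC (red) is rightmost for every gene shown except COL4A5, where it is at 0, and COL6A1, COL8A1 and COL11A1 are above 100 TPM in EC and under 2 TPM in all 7 JuB2 libraries.

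The hairpin groups were compared with limma, a linear model fitted to log2(TPM + 1) across all genes, and genes past an adjusted p of 0.05 were called. Of the 41 collagen genes 17 passed the filter of 1 TPM in at least 3 of the 6 libraries, 1 of them, COL14A1, through the libraries labelled knockdown alone, which fixes its direction. Among the 17, 10 fell, 5 did not pass and 2 were called higher, COL3A1 and COL14A1. Of all 11485 genes tested, 17.6% fell and 33.3% rose. The median difference was -0.86 over the 17 and 0.16 over all genes tested, so a gene near 0.16 moved like the median gene. For 11 of the 17 every library labelled knockdown lay below every scramble library, and for 2 every one lay above. Over all genes tested these shares were 20.9% and 38.3%. The 10 falls lay between -0.59 and -1.88 on the log2 scale, and 10 were called lower under each of the scalings tried save quantile normalization, which gave 11.

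**Figure D3:**
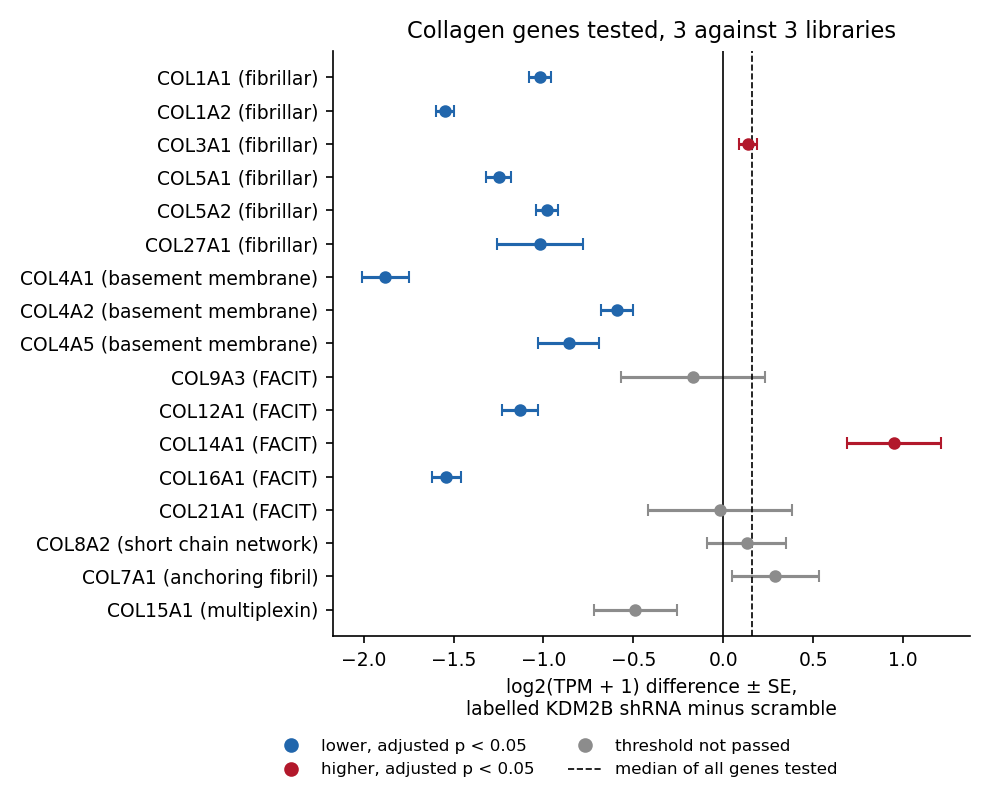
Difference in log2(TPM + 1) between the libraries labelled knockdown and scramble (n = 3 each) for the 17 collagen genes tested, with bars of 1 SE. The 10 genes in blue lie at -0.59 or below, while COL3A1 at 0.14 sits beside the median of all genes (dashed line, 0.16) and loses its call under all 3 other scalings, and COL14A1, tested only because it was higher in the libraries labelled knockdown, is at 0.95.

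Both type I chains fell. COL1A1, the chain present as a pair in type I collagen, stood at 150.3, 136 and 134 TPM in the libraries labelled knockdown, against 287, 284 and 281 TPM in scramble. The groups were far apart, and the fall was 1.02 on the log2 scale with an SE of 0.06 (limma adjusted p = 3.24e-05). Its partner COL1A2 held 232, 217 and 211 TPM in the libraries labelled knockdown, against 657, 636 and 640.4 TPM in scramble. It fell by 1.55 ± 0.05 (SE, limma adjusted p = 3.78e-06), the smallest adjusted p among the 17 members. In untreated JuB2 COL1A1 was at 201 and COL1A2 at 522 TPM, below every scramble library and above every library labelled knockdown. EC held 5334 TPM of COL1A1, 26.6 times untreated JuB2, and 3263 TPM of COL1A2, 6.25 times.

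Both type V chains, which join type I in mixed fibrils and set their diameter, also fell. COL5A1 was at 45.6, 47.7 and 42.6 TPM in the libraries labelled knockdown, against 114, 105 and 109 TPM in scramble, a fall of 1.25 ± 0.07 (SE, limma adjusted p = 3e-05). COL5A2 was at 114, 119.7 and 113 TPM in the libraries labelled knockdown, against 243, 219 and 225 TPM in scramble, a fall of 0.98 ± 0.06 (SE, limma adjusted p = 3.85e-05). Neither gene showed any overlap between the groups. Untreated JuB2 held 69.3 TPM of COL5A1, between the hairpin groups, and 222 TPM of COL5A2, inside the scramble range. EC held 731 TPM of COL5A1 and 1719.7 TPM of COL5A2. COL5A3, the third type V gene, was at 0.73 TPM in EC and listed at 0 in all 7 JuB2 libraries.

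COL3A1, the sole chain of type III collagen and a main fibril of vessel walls, was the one fibrillar gene of the 6 tested that did not fall. It held 388, 386 and 358 TPM in the libraries labelled knockdown, against 348, 338 and 339 TPM in scramble and 319 TPM in untreated JuB2. The groups did not overlap, but the difference of 0.14 ± 0.05 in log2 units (SE, limma adjusted p = 0.0439) was no larger than that of the median gene. It was -0.04 with trimmed-mean scaling (limma adjusted p = 0.521), 0.07 with quantile normalization (0.238) and 0.04 without the mitochondrially encoded genes (0.512), and it was called without library 3 labelled knockdown but in none of the 5 other fits that left out a library (0.068 to 0.124). Its share of the fibrillar TPM was 41.9 ± 0.532% in the libraries labelled knockdown and 21.2 ± 0.122% in scramble (SD, n = 3 each). That of COL1A2 was 24.4 ± 0.483% in the libraries labelled knockdown, against 40.0 ± 0.168% in scramble. COL3A1 was thus the leading collagen gene in all 3 libraries labelled knockdown and COL1A2 in all 3 scramble libraries. In EC COL3A1 led as well, at 6257 TPM and 35.2% of the fibrillar TPM, against 319 TPM and 23.9% in untreated JuB2.

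**Figure D4:**
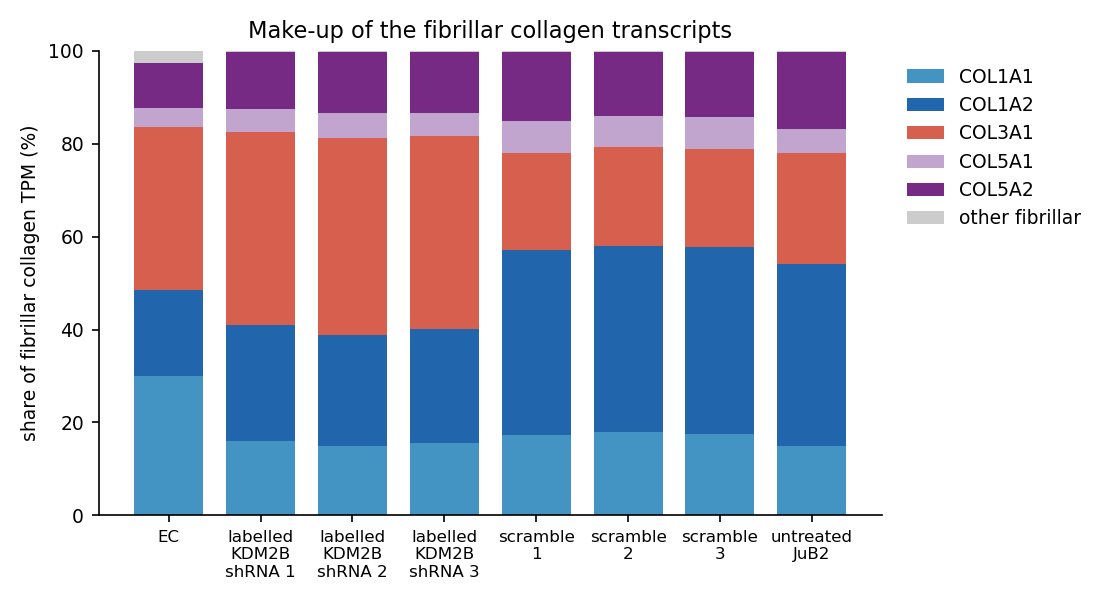
Share of the fibrillar collagen TPM held by each gene in each library, as stacked percentages. COL3A1 holds between 41.6% and 42.5% in the libraries labelled knockdown, against 21.0% to 21.3% in scramble, and COL1A1 is higher in EC, at 30%, than in any JuB2 library.

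The other fibrillar genes were low in JuB2. COL27A1, a long fibrillar chain of cartilage and other tissues, was at 1.72, 0.99 and 1.55 TPM in the libraries labelled knockdown, against 3.35, 5.09 and 3.32 TPM in scramble, and fell by 1.02 ± 0.24 (SE, limma adjusted p = 0.00954). All scramble libraries were above all libraries with the knockdown label. Untreated JuB2 held 3.04 TPM of it and EC 8.72 TPM. COL11A1, a minor chain of cartilage fibrils that starts fibril assembly, was at 462 TPM in EC and listed at 0 in untreated JuB2. It was at 0.15, 0.21 and 0.13 TPM in the libraries labelled knockdown, against 0.06, 0.41 and 0.43 TPM in scramble, too low for the test. Type II collagen, the cartilage fibril encoded by COL2A1, reached no more than 0.71 TPM in any library and was listed at 0 in EC, and COL11A2 reached 0.68 TPM. COL24A1 was above 0 in a single library labelled knockdown, at 0.07 TPM.

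Within the basement membrane class the chains of the main type IV network fell by unequal amounts. COL4A1, the chain present as a pair in that network, stood at 12.5, 9.29 and 12.5 TPM in the libraries labelled knockdown, against 44.5, 43.3 and 45.2 TPM in scramble. It fell by 1.88 ± 0.13 in log2 units (SE, limma adjusted p = 5.09e-05), the largest difference among the 17 members, and scramble stood at 3.88 times the libraries labelled knockdown. COL4A2 held 36.0, 30.4 and 32.7 TPM in the libraries labelled knockdown, against 51.8, 49.8 and 49.3 TPM in scramble, and fell by 0.59 ± 0.09 (SE, limma adjusted p = 0.00109). The groups did not overlap for either chain. Untreated JuB2 held 25.6 TPM of COL4A1, between the hairpin groups. Its 32.5 TPM of COL4A2 lay inside the range of the libraries labelled knockdown, so for this gene the difference separates those libraries from scramble and not from untreated cells. EC held 484 TPM of COL4A1 and 360.1 TPM of COL4A2, 18.9 and 11.1 times untreated JuB2.

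COL4A5, a type IV chain that in humans is needed in the kidney filter and is mutated in Alport syndrome, ran the other way between EC and JuB2. It was listed at 0 in EC and was at 5.56 TPM in untreated JuB2. In the libraries labelled knockdown it held 2.41, 2.64 and 3.05 TPM, against 5.33, 5.94 and 5.79 TPM in scramble, and it fell by 0.86 ± 0.17 (SE, limma adjusted p = 0.00401). The libraries labelled knockdown were all below scramble and untreated JuB2. Of the chains it can partner, COL4A3 and COL4A4 were listed at 0 in all 8 libraries, and COL4A6 was above 0 in a single library, at 0.08 TPM.

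Among the type VI genes with a row only COL6A1 was high in EC, and all were below 1 TPM in every JuB2 library. COL6A1 held 1376 TPM in EC and 0.38 TPM in untreated JuB2. In the hairpin groups it was at 0.23, 0.21 and 0.51 TPM in the libraries labelled knockdown, against 0.2, 0.09 and 0.29 TPM in scramble, with overlapping ranges. COL6A3, the largest chain of type VI, held 10.7 TPM in EC, was listed at 0 in untreated JuB2 and reached no more than 0.09 TPM in any JuB2 library. The type VI helix is built from COL6A1, COL6A2 and COL6A3 chains together, and in EC the TPM of COL6A1 was far above that of COL6A3. COL6A5 and COL6A6, which can take the place of COL6A3 in humans, were listed at 0 in all 8 libraries. No member of this class passed the filter for the test.

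Of the 5 FACIT genes tested 2 fell between the hairpin groups, 1 was called higher and 2 did not pass. Over all genes tested 17.6% fell and 33.3% rose. COL16A1, a collagen found on fibrils and near basement membranes, stood at 34.3, 31.1 and 30.5 TPM in the libraries labelled knockdown, against 98.2, 94.8 and 90.9 TPM in scramble. It fell by 1.54 ± 0.08 (SE, limma adjusted p = 2.37e-05). COL12A1, which coats type I fibrils in tissues under tension, was at 25.3, 20.4 and 23.3 TPM in the libraries labelled knockdown, against 52.2, 49.8 and 52.3 TPM in scramble, and fell by 1.13 ± 0.10 (SE, limma adjusted p = 0.000122). Both groups stood apart for each of these genes, and untreated JuB2 lay between them with 83.3 TPM of COL16A1 and 31.2 TPM of COL12A1. EC held 209 TPM of COL16A1, 2.51 times untreated JuB2, and 699 TPM of COL12A1, 22.4 times.

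COL14A1, a FACIT close in structure to COL12A1, was higher in the libraries labelled knockdown, at a low level. It held 1.44, 1.62 and 2.34 TPM in the libraries labelled knockdown, against 0.25, 0.58 and 0.5 TPM in scramble, was listed at 0 in untreated JuB2 and was at 7.83 TPM in EC. It reached the filter only through the libraries where it was high, so its call as higher is no independent result, and the difference of 0.95 ± 0.26 (SE, limma adjusted p = 0.019) is given as a description. The call was lost with quantile normalization (difference 0.57, limma adjusted p = 0.117), without library 3 labelled knockdown (0.0685) and without scramble library 1 (0.0553). COL9A3 and COL21A1 differed by -0.17 and -0.02 with overlapping groups and did not pass (limma adjusted p = 0.747 and 0.975). COL9A2 was at 2.38 TPM in EC and listed at 0 in all JuB2 libraries. COL9A1, COL19A1 and COL22A1 were listed at 0 in all 8 libraries, and COL20A1 did not exceed 0.1 TPM.

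Of the remaining 10 collagen genes, COL15A1 and COL8A1 marked EC. COL15A1, a multiplexin of the zone beneath basement membranes, held 192 TPM in EC and 6.18 TPM in untreated JuB2. It was at 2.35, 2.23 and 1.57 TPM in the libraries labelled knockdown, against 3.86, 3.59 and 2.43 TPM in scramble. Although these ranges did not overlap, the difference of -0.49 ± 0.23 did not pass (SE, limma adjusted p = 0.113), and every JuB2 library with a hairpin was below the untreated one. COL8A1, a short chain collagen of vessel walls, held 157 TPM in EC and 0.4 TPM in untreated JuB2, and at most 1.9 TPM in the other JuB2 libraries. Its partner chain COL8A2 differed far less, with 4.53 TPM in EC and 2.69 TPM in untreated JuB2. COL8A2 and COL7A1, which anchors basement membranes to the tissue below, did not pass between the hairpin groups (limma adjusted p = 0.639 and 0.356). COL13A1 and COL23A1, both transmembrane, were listed at 0 in all 8 libraries, which makes 9 such genes among the 41. COL10A1, COL17A1, COL25A1 and COL28A1 stayed between 0 and 1.32 TPM.

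Several collagen falls were relative to a scramble level above that of untreated cells. Among the 17 members tested, every scramble library was above untreated JuB2 for 11 and below it for 1, COL15A1, where 31.8% and 32.4% of all genes tested were. Every library labelled knockdown was below untreated JuB2 for 10 of the 17, against 30.6% of all genes tested. Of the 10 genes that fell, untreated JuB2 lay above the range of the libraries labelled knockdown for 9 and within it for COL4A2. It lay below the scramble range for 8 and within it for COL5A2 and COL4A5. The mean of the libraries labelled knockdown over untreated JuB2 was 0.698 for COL1A1, 0.422 for COL1A2, 0.447 for COL4A1, 0.737 for COL12A1 and 0.384 for COL16A1. Over scramble the same ratios were 0.493, 0.342, 0.258, 0.447 and 0.338. These comparisons share libraries, and untreated JuB2 is a single one.

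Ratios between chains within a library do not depend on a single scaling factor per library, and for both partner pairs tested the hairpin groups did not overlap. COL1A2 over COL1A1 was 1.54, 1.6 and 1.58 in the libraries labelled knockdown, against 2.29, 2.24 and 2.28 in scramble. It was 2.6 in untreated JuB2 and 0.612 in EC, so EC alone had a higher TPM of COL1A1 than of COL1A2. The log2 ratio differed by -0.53 between the hairpin groups (two-sided exact permutation p = 0.10, the smallest that 3 against 3 libraries can give). COL4A2 over COL4A1 was 2.87, 3.27 and 2.63 in the libraries labelled knockdown, against 1.16, 1.15 and 1.09 in scramble. It was 1.27 in untreated JuB2 and 0.744 in EC, and the log2 ratio differed by 1.36 between the hairpin groups (two-sided exact permutation p = 0.10, again the smallest possible). For this ratio untreated JuB2 lay nearer to scramble than to the libraries labelled knockdown, unlike the levels of COL4A2 itself.

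Some of these ratios join neighbours in the genome. In the gene order of the dog assembly UU_Cfam_GSD_1.0, COL4A1 lies next to COL4A2, a pair known in humans and mice to be transcribed in opposite directions from a shared promoter, and COL3A1 lies next to COL5A2. COL3A1 over COL5A2 was 3.39, 3.22 and 3.17 in the libraries labelled knockdown, against 1.43, 1.55 and 1.51 in scramble, 1.44 in untreated JuB2 and 3.64 in EC. The libraries labelled knockdown were thus nearer to EC than to the other JuB2 libraries in this ratio. In COL3A1 over COL1A1 it was scramble that lay nearest to EC. That ratio was 2.58, 2.84 and 2.67 in the libraries labelled knockdown, against 1.21, 1.19 and 1.21 in scramble. It was 1.59 in untreated JuB2 and 1.17 in EC. For the type V pair, COL5A2 over COL5A1, the ratio was 2.51, 2.51 and 2.66 in the libraries labelled knockdown, against 2.14, 2.08 and 2.06 in scramble, with the highest value, 3.21, in untreated JuB2. The ratios with COL3A1 and that of the type V pair were not tested. COL4A3 and COL4A4, COL4A5 and COL4A6, COL6A5 and COL6A6, and COL9A1 and COL19A1 are neighbours too; apart from COL4A5, none of these exceeded 0.08 TPM.

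**Figure D5:**
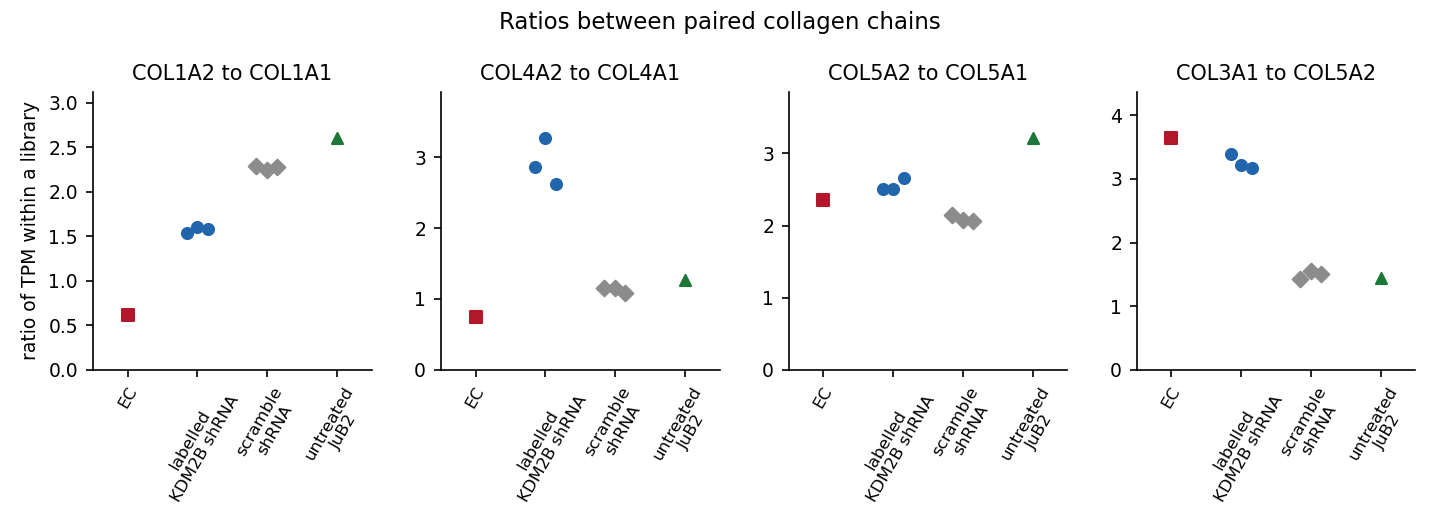
TPM of a collagen gene over that of its partner or neighbour, 1 point per library, on axes that start at 0, for EC (red), the libraries labelled knockdown (blue), scramble (grey) and untreated JuB2 (green). COL4A2 over COL4A1 lies between 2.63 and 3.27 in the libraries labelled knockdown, against 1.09 to 1.16 in scramble, and COL1A2 over COL1A1 is below 1 in EC only.

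Genes that make, cross-link, bind and cut collagen moved in both directions. For each group, the count is to be read against the 33.3% of all genes tested that rose and the 17.6% that fell, and the median against 0.16. Under trimmed-mean scaling 22.9% of all genes rose and 25.3% fell, under quantile normalization 24.8% and 23.4%, and without the mitochondrially encoded genes 27.2% and 21.7%. Among enzymes of hydroxylation and glycosylation, 3 rose, 3 fell and 6 did not pass of 12 tested, with a median of 0.04, near the shares of all genes. With trimmed-mean scaling 1 rose and 4 fell, and with each of the other scalings 1 rose and 3 fell. PLOD2, which hydroxylates telopeptide lysines for cross-links, was at 21.7, 17.4 and 23.3 TPM in the libraries labelled knockdown, against 68.0, 70.1 and 63.5 TPM in scramble, and fell by 1.65 ± 0.12 (SE, limma adjusted p = 5.97e-05). PLOD3, a related lysyl hydroxylase that also glycosylates, averaged 119 ± 2.87 TPM in the libraries labelled knockdown against 84.2 ± 5.24 TPM in scramble and rose by 0.50 ± 0.07 (SE, limma adjusted p = 0.000771). The prolyl hydroxylase P4HA3 averaged 22.4 ± 2.09 TPM in the libraries labelled knockdown against 30.5 ± 2.68 TPM in scramble and fell (limma adjusted p = 0.014). COLGALT1, a collagen galactosyltransferase, averaged 88.7 ± 2.02 TPM in the libraries labelled knockdown against 73.4 ± 4 TPM in scramble and rose (limma adjusted p = 0.0123), a call lost under all 3 other scalings.

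Chaperones and export factors numbered 12 tested, of which 5 rose, 2 fell and 5 did not pass, with a median of 0.09. The shares of all genes, 33.3% and 17.6%, are close to these. Under trimmed-mean scaling 3 rose and 4 fell. CREB3L1, a transcription factor known in mice to activate type I collagen genes in bone, averaged 24.2 ± 0.305 TPM in the libraries labelled knockdown against 46.4 ± 2.97 TPM in scramble and fell by 0.91 ± 0.08 (SE, limma adjusted p = 0.000147). TMEM38B, an endoplasmic reticulum ion channel, and SEC24D, a coat protein of export vesicles, rose by 0.87 ± 0.14 and 0.48 ± 0.08 (SE, limma adjusted p = 0.00144 and 0.00222). SERPINH1, a chaperone specific to procollagen, averaged 576 ± 34.3 TPM in the libraries labelled knockdown against 467 ± 6.57 TPM in scramble and rose (limma adjusted p = 0.00243), but did not pass with trimmed-mean scaling (0.0543). Among propeptide-processing genes 1 rose, 2 fell and 1 did not pass of 4 tested (median 0.01; all genes 33.3% and 17.6%): PCOLCE, an enhancer of procollagen cleavage, averaged 14.6 ± 2.44 TPM in the libraries labelled knockdown against 7.09 ± 2.09 TPM in scramble, and the proteinases TLL1 and BMP1 4.95 ± 0.563 TPM in the libraries labelled knockdown against 11 ± 0.556 TPM in scramble and 56.0 ± 0.626 TPM in the libraries labelled knockdown against 71.3 ± 3.73 TPM in scramble.

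Of 5 cross-linking genes tested 3 fell and 2 rose (median -0.23), where 17.6% of all genes fell and 33.3% rose. Under each of the other 3 scalings 3 fell and none rose, where 21.7% to 25.3% of all genes fell and 22.9% to 27.2% rose. LOXL4, a lysyl oxidase, was at 8.13, 8.75 and 14.1 TPM in the libraries labelled knockdown, against 39.5, 42.9 and 42.1 TPM in scramble and 77.6 TPM in untreated JuB2, and fell by 1.95 ± 0.19 (SE, limma adjusted p = 0.000173). LOXL2 fell by 1.56 ± 0.06 and LOX by 0.23 ± 0.07 (SE, limma adjusted p = 9.12e-06 and 0.0213), and the call of LOX was lost without library 2 labelled knockdown and without scramble library 1 or 3 (0.0571 to 0.0669). TGM2, a transglutaminase, averaged 3.33 ± 0.737 TPM in the libraries labelled knockdown against 1.7 ± 0.337 TPM in scramble and rose, a call lost under all 3 other scalings and without library 1 or 2 labelled knockdown or scramble library 2 or 3 (limma adjusted p = 0.0634 to 0.112). Collagen receptors had 3 lower, 1 higher and 2 not passing of 6 (median -0.33), where 17.6% of all genes fell and 33.3% rose. DDR2, a receptor kinase for fibrillar collagen, averaged 12.5 ± 1.97 TPM in the libraries labelled knockdown against 25.6 ± 1.03 TPM in scramble, and ITGB1, the shared chain of collagen-binding integrins, 234 ± 9.11 TPM in the libraries labelled knockdown against 305 ± 8.04 TPM in scramble; both fell. MRC2, which takes up collagen fragments, averaged 7.33 ± 2.44 TPM in the libraries labelled knockdown against 13.8 ± 0.444 TPM in scramble and also fell, while DDR1 averaged 16.8 ± 2.47 TPM in the libraries labelled knockdown against 10.3 ± 2.15 TPM in scramble and rose, with no call under trimmed-mean scaling (0.0517) or without library 1 labelled knockdown (0.0538).

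All 4 collagen-degrading genes tested rose, with a median of 0.58, where 33.3% of all genes rose. They were also called higher under the other 3 scalings, where 22.9% to 27.2% of all genes were. MMP14, a membrane-bound collagenase, was at 56.4, 57.7 and 52.3 TPM in the libraries labelled knockdown, against 30.6, 26.6 and 28.2 TPM in scramble and 28.8 TPM in untreated JuB2, a rise of 0.94 ± 0.09 (SE, limma adjusted p = 0.000152). MMP2, a gelatinase activated by MMP14, averaged 74.8 ± 8.56 TPM in the libraries labelled knockdown against 48.7 ± 2.1 TPM in scramble, and the cathepsins CTSK and CTSB 144 ± 6.38 TPM in the libraries labelled knockdown against 98.5 ± 8.31 TPM in scramble and 515 ± 12.1 TPM in the libraries labelled knockdown against 354 ± 17.9 TPM in scramble. The interstitial collagenases MMP1, MMP8 and MMP13 stayed at 1.6 TPM or less in every library. Of 5 tested partners of fibrillar collagen 2 fell and none rose (median -0.17; all genes 17.6% and 33.3%), fibronectin FN1 by 0.72 ± 0.05 and the proteoglycan BGN by 0.41 ± 0.07 (SE, limma adjusted p = 4.69e-05 and 0.00262). Of 7 partners in basement membranes 4 fell and 1 rose (median -0.61), where 17.6% of all genes fell and 33.3% rose. Under each other scaling 6 fell, where the share of all genes that fell was also larger, at 21.7% to 25.3%. AGRN, a heparan sulfate proteoglycan, averaged 22.1 ± 1.38 TPM in the libraries labelled knockdown against 59.0 ± 3.34 TPM in scramble, NID2, which links laminin to type IV collagen, 41.2 ± 3.28 TPM in the libraries labelled knockdown against 63.6 ± 5.56 TPM in scramble, the laminin chain LAMA4 14.3 ± 1.4 TPM in the libraries labelled knockdown against 24.9 ± 2.56 TPM in scramble and perlecan HSPG2 5.41 ± 0.549 TPM in the libraries labelled knockdown against 10.3 ± 0.702 TPM in scramble.

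A few of these genes were, like COL6A1, high in EC and at or near 0 in JuB2. Chosen after their values were seen, P3H3, ADAMTS2, PXDN, FAP, DCN and NID1 were listed at 0 in all 7 JuB2 libraries and held 87.3, 28.3, 99.7, 67.1, 3527 and 243 TPM in EC. Among them DCN, decorin, binds type I fibrils and NID1 joins laminin to type IV collagen. Cell type markers also moved between the hairpin groups. Of 5 tested endothelial markers 4 rose, where 33.3% of all genes did, and the list summed to between 82.9 and 87.5 TPM in the libraries labelled knockdown, against 46.8 to 53.4 TPM in scramble. ENG averaged 37.8 ± 2.52 TPM in the libraries labelled knockdown against 21.8 ± 1.81 TPM in scramble, EGFL7 17.2 ± 0.16 TPM in the libraries labelled knockdown against 9.18 ± 2.15 TPM in scramble, SOX18 6.38 ± 1.48 TPM in the libraries labelled knockdown against 2.07 ± 0.919 TPM in scramble and KDR 6.2 ± 0.33 TPM in the libraries labelled knockdown against 3.32 ± 0.666 TPM in scramble, while PECAM1 and VWF stayed below 1 TPM. ERG, too uneven to enter the test, was at 9.22, 7.42 and 0 TPM in the libraries labelled knockdown, against 0, 0 and 0 TPM in scramble. Of 5 tested fibroblast and mural markers 3 fell and none rose, where 17.6% of all genes fell and 33.3% rose. The list summed to between 129 and 140 TPM in the libraries labelled knockdown, against 182 to 190 TPM in scramble. In untreated JuB2 the fibroblast and mural list summed to 125 TPM, below both hairpin groups and nearer to the libraries labelled knockdown. The endothelial list summed to 52.9 TPM there, inside the scramble range. THY1 averaged 34.5 ± 4.62 TPM in the libraries labelled knockdown against 60.8 ± 3.32 TPM in scramble, PDGFRA 19.9 ± 2.6 TPM in the libraries labelled knockdown against 32.1 ± 1.23 TPM in scramble and ACTA2 6.65 ± 1.55 TPM in the libraries labelled knockdown against 19.6 ± 1.51 TPM in scramble, and PDGFRB and NOTCH3 stayed near or below 1 TPM in all JuB2 libraries. The endothelial marker FLT1 did not pass (limma adjusted p = 0.585). Nor did CNN1 and MYH11 of the fibroblast and mural list (limma adjusted p = 0.686 and 0.523). CNN1 averaged 63.8 ± 2.29 TPM in the libraries labelled knockdown against 66.0 ± 5.81 TPM in scramble. Untreated JuB2 held 30.6 TPM of it. The part of the cell type markers in the collagen differences was not tested.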

How the data were processed

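The authors deposited TPM per gene, 1 column per library, in columns headed as gene results, over 30424 genes. STAR, RSEM and CanFam3.1 stand, with no role or version, in the list of tools and builds taken from the authors' notes (per the submitters' processing notes). Strand use, shared reads and depth are unknown.

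The hairpin groups (n = 3 each) were compared by limma 3.58.1 (R 4.3.3, trended variance) on log2(TPM + 1). Genes entered at 1 TPM in 3 or more of the 6 libraries, and p-values were adjusted by Benjamini-Hochberg over all 11485. This scale understates changes of low genes. The fit was tested on simulated data with independent noise, which does not probe the choice of scaling. Single libraries were compared by a difference of at least 2. The collagen genes, their textbook classes and the gene lists were chosen with earlier results of these data known. Named with values were collagen genes with a group mean of at least 5 TPM or past an adjusted p of 0.05, and the up to 4 called genes of each list with the smallest adjusted p; others are given by range or named at 0. Some others, such as the low fibrillar genes, were named after their values were seen. Alternatives were other scalings, pseudocounts of 0.1 and 5, other filters, no trend, all 8 libraries in the fit, the replicate number as a block and each library left out. Neighbours come from a RefSeq table of another assembly, so no coordinates are given. Figures were drawn with matplotlib 3.10.9.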

Additional observations from a re-analysis of the deposited data

How the results depend on the processing

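The 10 collagen genes called lower kept their direction under all alternatives in which they were tested. The number called lower was 10 in all of them except quantile normalization, with 11, and the filter on a mean of 5 TPM, with 8 because COL27A1 and COL4A5 were no longer tested. The number called higher, 2 as reported, was 1 with trimmed-mean scaling, without the mitochondrially encoded genes, without a filter, with a mean of at least 5 TPM, without the intensity trend and with the replicate block. It was 0 with quantile normalization, and 0 to 1 with a library left out. COL3A1 changed sign with trimmed-mean scaling (-0.04). Of the genes that did not pass, COL9A3 changed sign with a library left out (range -0.54 to 0.15), as did COL21A1 (-0.34 to 0.40) and COL8A2 (-0.02 to 0.28). COL21A1 also did with a pseudocount of 5 (0.02) and COL8A2 with quantile normalization (-0.11). COL15A1 passed with quantile normalization (-0.73, limma adjusted p = 0.0295). The cause of these changes was not tested. Over all genes 5060 to 5165 were called with a library left out, against 5850 as reported. The share called higher was 65.4%, but 47.5% with trimmed-mean scaling, 51.5% with quantile normalization and 55.6% without the mitochondrially encoded genes. With the replicate block 5448 genes were called, and the log2 ratios were -0.53 for COL1A2 over COL1A1 and 1.36 for COL4A2 over COL4A1 (two-sided exact sign-flip permutation p = 0.25, the smallest for 3 pairs). Deviations of same-numbered libraries correlated at 0.034, 0.012 and -0.046, so the numbers were not taken as pairs, and not every library correlated best with its own number. With a library left out these ratios stayed between -0.54 and -0.52 and between 1.28 and 1.43. Between EC and untreated JuB2, 12 to 17 members were higher under the alternatives, and the count lower was 2 at a threshold of 1 or with a pseudocount of 0.1 and 0 at a threshold of 3 or with a pseudocount of 5. TPM gives no depth, so no detection limit can be set for the collagen genes listed at 0.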
